A study of Mus musculus with 12 samples.

Results

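Myostatin, activin and their relatives signal through a small set of receptors and SMAD proteins that restrain muscle growth, and 10 genes of this pathway were followed here across the 4 groups of a mouse skeletal muscle RNA sequencing study. The genes were taken by symbol: the ligands Mstn and Gdf11, the binding proteins Fst, Fstl1 and Fstl3, the receptors Acvr2a, Acvr2b and Acvr1b, and the intracellular genes Smad3 and Smad7. All 10 were in both deposited count tables, among 21976 genes that the tables share, and all 10 passed edgeR's filter on low counts in every test. By edgeR on all libraries of a comparison, 0 of the 10 passed the adjusted threshold in each of the 4 tests, while DESeq2 called Gdf11 between HFD and Chow and both Gdf11 and Fstl1 over the 4 groups. Gdf11 had the widest range. It averaged 14.3 ± 4.84 counts-per-million (CPM) in chow-fed mice and 30.7 ± 5.89 CPM in mice on the high-fat diet (SD, n = 3). It was lowest, at 9.36 ± 5.11 CPM, in the mice given PCN. Their libraries overlapped those of the mice given its vehicle, at 23.0 ± 12.1 CPM.

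Myostatin (Mstn) is secreted mainly by muscle fibres and limits muscle mass, and animals that lack it carry enlarged muscles. GDF11 is a close relative whose mature domain is nearly the same, and both bind the activin type II receptors ACVR2A and ACVR2B. These recruit a type I receptor such as ACVR1B, which phosphorylates SMAD2 and SMAD3 so that they enter the nucleus with SMAD4. Follistatin (Fst) and follistatin-like 3 (Fstl3) trap the ligands outside the cell, and SMAD7 is an inhibitory SMAD that dampens the receptor signal. Fstl1 shares the follistatin name and a related domain but is a matrix-associated glycoprotein, made by connective tissue cells among others.

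All mice were of the C57BL/6N strain, and the diets began when they were 6 weeks old and lasted 18 weeks. Chow mice received regular chow and HFD mice a high-fat diet, with no injection in either group. The other 2 groups were on the same high-fat diet and were injected intraperitoneally on 4 days, either with 50 mg/kg of pregnenolone carbonitrile (PCN), an agonist of the rodent pregnane X receptor, or with its vehicle, 30% DMSO in corn oil. Each group had 3 libraries, which carry unique numbers and are named by group and number below. The labels do not state that each library came from its own mouse, so the p-values measure the spread between these libraries. The muscle taken was not given in the sources used here.

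The 3 Chow libraries held 12770308 to 18920359 counts, HFD libraries 14266093 to 17096576, Vehicle libraries 16790642 to 17628784 and PCN libraries 14379421 to 19739226. The muscle label was checked against fibre markers, of which 9 of 10 listed genes were in both tables. Myh4, a fast myosin heavy chain, lay between 30400 and 92110 CPM in the 12 libraries. Libraries of the same group differed in slow-fibre marker levels. Only 4 of 12 listed slow-fibre markers were analysed in all 12 libraries (Myh7, Myl2, Myl3, Tnnt1, Tnni1, Tnnc1, Atp2a2 and Csrp3 were not analysed here in Vehicle and PCN). Their summed level was 509 and 523 CPM in Chow 17 and Chow 19 but 166 CPM in Chow 8, and 438 CPM in PCN 5 but 57.7 and 31.7 CPM in PCN 11 and PCN 27. It was 48.9 to 202 CPM in HFD, and 27.1, 88.8 and 164 CPM in Vehicle 15, 23 and 55. In bulk tissue, fewer cells of a type and less RNA per cell cannot be told apart.

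Per kilobase of exonic length, the scale on which genes can be set beside each other, Mstn had the highest mean level of the 10 over the 12 libraries. It averaged 26.0 ± 8.11 CPM per kb (SD, n = 12), followed by Smad3 at 16.6 ± 5.03 and Acvr1b, a type I receptor, at 14.6 ± 4.56 CPM per kb. The type II receptor Acvr2a stood at 7.34 ± 1.80 CPM per kb, and its partner Acvr2b at 1.98 ± 0.589. Within a library, Acvr2a was 2.10 to 8.10 times as high as Acvr2b per kb, so ACVR2A transcripts outnumbered ACVR2B transcripts in all 12. Fstl1 averaged 6.08 ± 2.46 and Gdf11 4.77 ± 2.64 CPM per kb. The inhibitory Smad7 followed at 1.28 ± 0.322 CPM per kb. The antagonists Fst and Fstl3 came last, at 0.640 ± 0.265 and 0.318 ± 0.0846 CPM per kb, with 19 to 63 and 8 to 22 counts per library, so their group differences rest on few reads. Gdf11 spanned the widest range of the 10, 8.67-fold from 4.21 CPM (PCN 5) to 36.5 CPM (HFD 4), and Smad7 the narrowest, 1.95-fold.

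**Figure D1:**
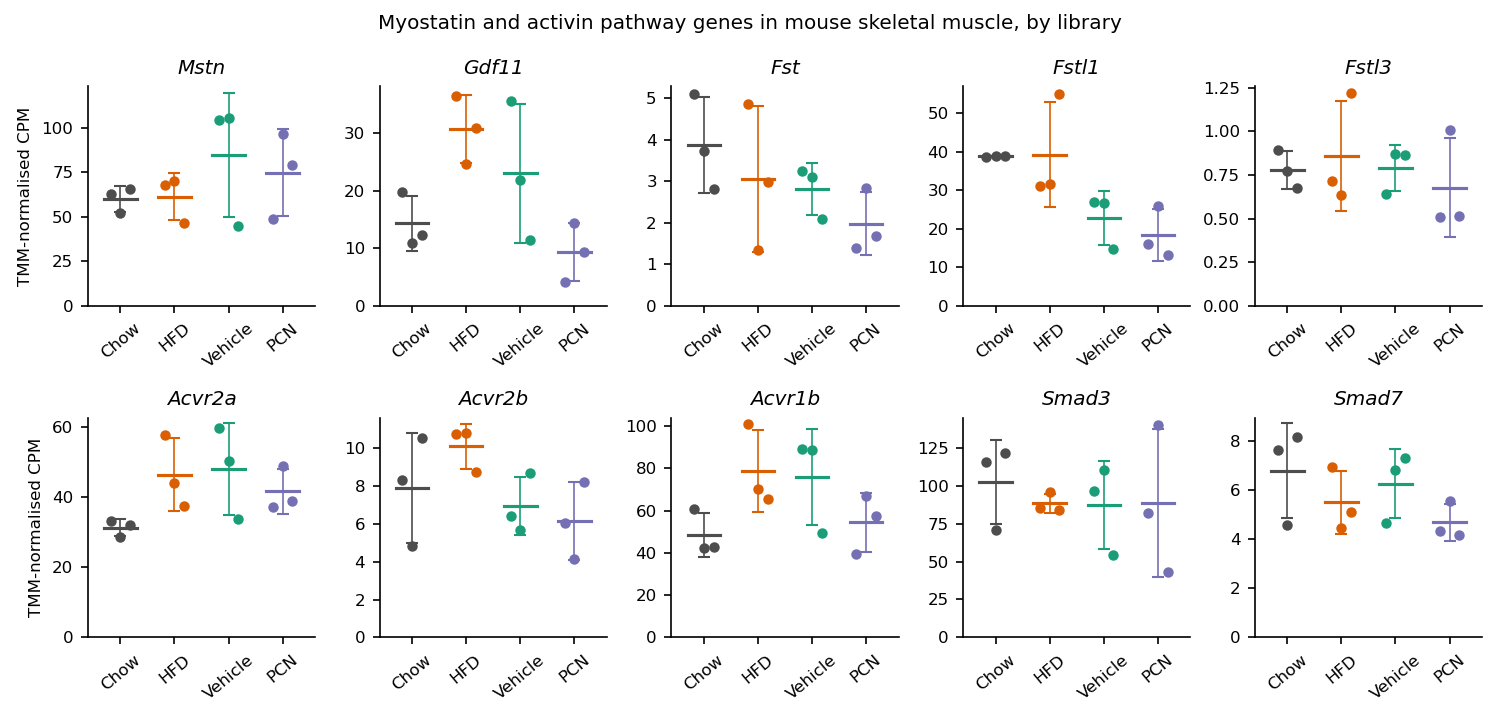
Level of each of the 10 genes in TMM-normalised CPM (vertical axes, each from 0) in Chow, HFD, Vehicle and PCN. Points are libraries, bars the mean and whiskers the SD of 3 libraries; all HFD points of Gdf11 lie above all Chow points, and those of Mstn overlap.

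Ordered by group mean, neighbouring groups overlapped in 28 of 30 pairs over the 10 genes. Over all 13375 genes of the 4-group test, 5.73% of neighbouring pairs did not overlap. The exceptions among the 10 were Fstl1, with every Chow library above every Vehicle library, and Acvr2a, with every PCN library above every Chow library. The highest and the lowest group, picked by their means, did not overlap for 5 of the 10 genes, a share near the 41.2% of all genes for which the same held. These were HFD and PCN for Gdf11, Fstl1 and Acvr2b, Vehicle and Chow for Acvr2a, and HFD and Chow for Acvr1b. For Mstn, Fst, Fstl3, Smad3 and Smad7 even the highest and the lowest group overlapped.

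The sequences just before the gene starts are shown for the 3 genes whose HFD libraries all lay above the Chow libraries (Gdf11, Acvr1b and Acvr2a) and for Mstn, the most abundant of the 10 per kb, because the former differ from the latter in base composition. Each is the 250 bases before the RefSeq start in build GRCm38.p6, written 5′ to 3′ on the gene's strand. The windows are chr10:128891719-128891968 (minus strand) for Gdf11, chr15:101173822-101174071 (plus) for Acvr1b, chr2:48813859-48814108 (plus) for Acvr2a and chr1:53061390-53061639 (plus) for Mstn. Capitals mark matches on either strand to GGGCGG, the GC box bound by Sp1-family factors, and to CANNTG, the E-box bound by myogenic regulators.
Gdf11: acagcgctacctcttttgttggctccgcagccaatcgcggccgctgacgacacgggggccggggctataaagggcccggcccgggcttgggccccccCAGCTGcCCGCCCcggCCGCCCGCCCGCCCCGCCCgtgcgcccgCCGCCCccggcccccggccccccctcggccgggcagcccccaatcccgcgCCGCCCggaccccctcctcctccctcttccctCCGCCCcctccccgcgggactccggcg
Acvr1b: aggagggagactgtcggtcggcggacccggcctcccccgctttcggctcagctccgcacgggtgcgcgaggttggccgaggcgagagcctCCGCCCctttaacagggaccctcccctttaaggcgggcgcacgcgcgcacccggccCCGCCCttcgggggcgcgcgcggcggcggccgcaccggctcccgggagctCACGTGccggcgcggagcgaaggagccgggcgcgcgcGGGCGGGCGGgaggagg
Acvr2a: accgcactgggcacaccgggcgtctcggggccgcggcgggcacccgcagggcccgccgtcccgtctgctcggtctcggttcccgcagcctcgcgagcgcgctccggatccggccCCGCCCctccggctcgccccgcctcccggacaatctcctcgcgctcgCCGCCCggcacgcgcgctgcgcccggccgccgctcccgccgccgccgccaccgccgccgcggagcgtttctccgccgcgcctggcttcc
Mstn: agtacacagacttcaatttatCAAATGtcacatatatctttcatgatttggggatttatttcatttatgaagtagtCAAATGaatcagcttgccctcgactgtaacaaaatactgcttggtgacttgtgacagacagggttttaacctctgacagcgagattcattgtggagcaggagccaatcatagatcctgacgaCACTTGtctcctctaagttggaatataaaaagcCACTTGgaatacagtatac

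The GC content was 81.2% for Gdf11, 78.8% for Acvr1b and 82.0% for Acvr2a, at the 99.1, 98.3 and 99.3 percentiles of 32851 RefSeq windows of the same length, whose median was 52.4%. The Mstn window held 38.4% GC, at the 9.05 percentile. GGGCGG had 8 matches in Gdf11, 4 in Acvr1b, 2 in Acvr2a and 0 in Mstn, and 32.7% of all windows held at least 1. The windows of Fstl3, Acvr2b, Fstl1 and Smad3 held 4, 3, 2 and 2 matches, so the counts of Acvr1b and Acvr2a lie within those of other members. CANNTG had 4 matches in Mstn, 1 in Gdf11, 1 in Acvr1b and 0 in Acvr2a, against 66.2% of all windows with at least 1. No GC box overlapped an E-box in these windows. CAGAC, the short SMAD-binding sequence, had 2 matches in Mstn, 1 in Acvr2a and 0 in Gdf11 and Acvr1b, and 42.2% of all windows held it. Windows for Fstl1, Fstl3, Acvr2b and Smad3 were also read, with GC contents of 68.0% (Fstl1) to 72.8% (Acvr2b). These lie at the 87.8 to 94.0 percentiles, so of the members with a window only Mstn was below the median of all windows. A match describes the letters and not a bound site.

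The first comparison asked how the high-fat diet differed from chow, and here Gdf11 stood out among the ligands. Chow 8, 17 and 19 held 19.9, 10.9 and 12.2 CPM, and HFD 4, 30 and 38 held 36.5, 24.7 and 30.9 CPM. Every HFD library was above every Chow library. The fitted log2 fold change was 1.12 ± 0.24 (SE; 95% interval 0.58 to 1.67), with an adjusted p = 0.397 by edgeR's quasi-likelihood test with Benjamini-Hochberg adjustment, and Gdf11 ranked 38 of 12686 genes by p. In the authors' deposited table Gdf11 was 1 of 27 genes with an adjusted p under 0.05 (log2 fold change 0.83 ± 0.19, adjusted p = 0.0157). A DESeq2 fit of the deposited counts gave 1.11 with an adjusted p = 0.00675. The unadjusted p was 1.44e-05 in the deposited comparison and 1.26e-05 in the DESeq2 fit, so these fold changes may be on unlike scales. Whether the deposited fold changes were shrunken by the fitting tool was not given in the sources used here. Gdf11 lies on chromosome 10 (128882295 to 128891718, minus strand, GRCm38).

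Mstn (chromosome 1, 53061640 to 53068079, plus strand), by contrast, overlapped fully between the diets. Its levels were 62.8, 52.0 and 65.6 CPM for Chow 8, 17 and 19, and 67.7, 70.1 and 46.3 CPM for HFD 4, 30 and 38. The log2 fold change was 0.04 ± 0.18, and its interval, -0.35 to 0.43, leaves room for a moderate difference either way.

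Transcripts of the 3 listed receptors were higher in HFD by their fitted values. Of these, 2 did not overlap between groups, where 5.81% of all genes were fully higher in HFD. Of 9 other receptors of the family, 6 had higher and 3 lower fitted values in HFD, and 0 stood apart in either direction. Acvr1b, the type I activin receptor (chromosome 15, 101174067 to 101213684), reached 60.5, 42.2 and 42.5 CPM for Chow 8, 17 and 19, against 101, 70.0 and 65.3 CPM for HFD 4, 30 and 38. All HFD libraries were above the Chow range, HFD 38 by a small margin over Chow 8. The log2 fold change was 0.72 ± 0.21 (edgeR adjusted p = 0.540, rank 142). Acvr2a, a type II receptor (chromosome 2, 48814109 to 48903269), showed 33.1, 28.5 and 32.1 CPM for the Chow libraries against 57.6, 44.0 and 37.4 CPM for HFD, in the same order. Its groups also stood apart, with a log2 fold change of 0.58 ± 0.17 (edgeR adjusted p = 0.549, rank 148). Acvr2a shares exonic sequence with Orc4 on the opposite strand and the counting's strand setting was not given in the sources used here, so reads of the pair cannot be separated; the mean of Orc4 was 18.9 CPM for Chow against 16.0 CPM for HFD. Acvr2b, the other type II receptor (chromosome 9, 119402118 to 119434995), averaged 7.91 ± 2.89 and 10.1 ± 1.17 CPM with overlapping groups (log2 fold change 0.36 ± 0.26).

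The binding proteins overlapped between the diets. Fst, follistatin itself (chromosome 13, 114452290 to 114458951), had a mean of 3.88 ± 1.16 CPM for Chow against 3.06 ± 1.76 CPM for HFD. Fstl3 (chromosome 10, 79777272 to 79782630) averaged 0.779 ± 0.109 and 0.857 ± 0.316 CPM. Exons of both overlap an opposite-strand gene, Gm47040 for Fst and Prss57 for Fstl3. Fstl1 (chromosome 16, 37776873 to 37836514) lay within 38.7 to 39.0 CPM in all 3 Chow libraries, whereas HFD 4 and HFD 30 stood at 31.2 and 31.7 CPM and HFD 38 at 55.0 CPM. Its log2 fold change of 0.04 became -0.30 without HFD 38. Smad3, the signal transducer (chromosome 9, 63646767 to 63757994), had a mean of 103 ± 27.6 CPM for Chow against 88.4 ± 6.34 CPM for HFD. Smad7, the inhibitory SMAD (chromosome 18, 75367529 to 75395935), averaged 6.77 ± 1.93 and 5.49 ± 1.29 CPM, and both genes overlapped between the diets.

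Counted together, 0 of the 10 genes passed edgeR's adjusted threshold of 0.05 between HFD and Chow, as did 0% of all genes tested. At an unadjusted p under 0.05 there were 3 (Gdf11, Acvr1b and Acvr2a), beside 7.70% of all genes. Those 3 were also the members whose groups did not overlap with HFD higher, against 5.81% of all genes, and 0 members were fully lower, against 6.94%. The median log2 fold change of the 10 was 0.12 and that of all genes 0.00043. DESeq2 called 1 of the 10 (Gdf11) and 44 genes in all. With no filter on low counts, so that genes with as few as 1 count were kept, edgeR called 237 of 24093 genes. Gdf11, Acvr1b and Acvr2a were among them (edgeR adjusted p = 1.25e-07, 0.00254 and 0.0416), none of which passed with the filter.

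**Figure D2:**
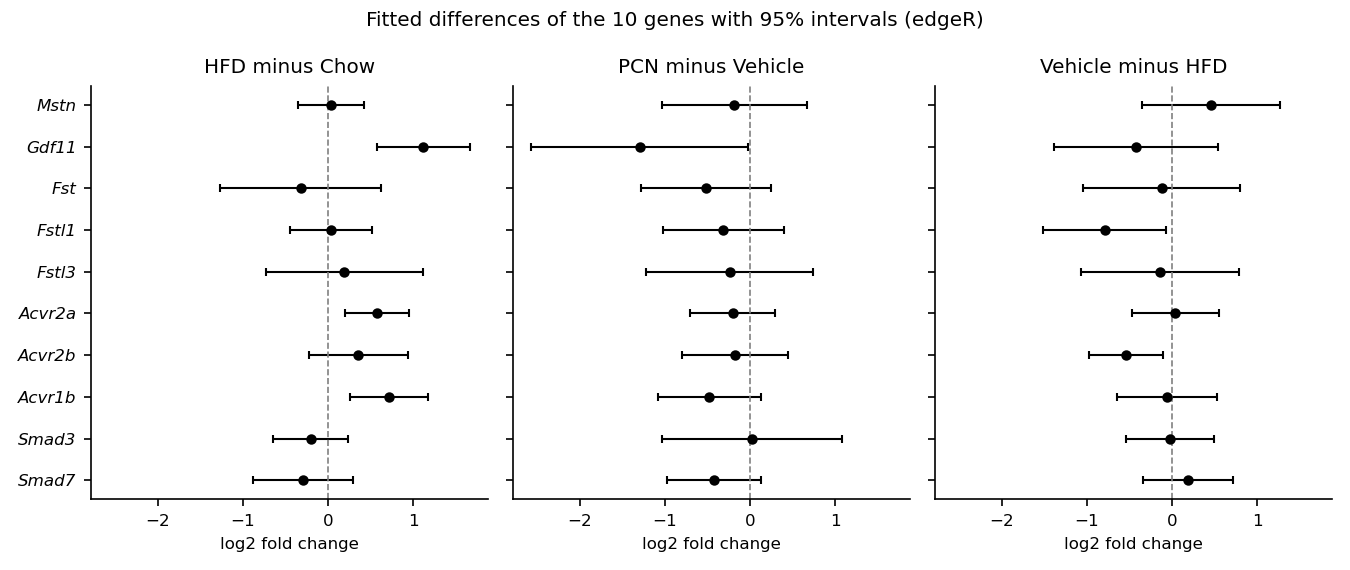
Fitted log2 fold change (horizontal axis) of the 10 genes in the 3 pairwise comparisons, with 95% intervals from edgeR. Intervals of Gdf11, Acvr2a and Acvr1b lie above 0 in HFD minus Chow, that of Gdf11 lies just below 0 in PCN minus Vehicle, and those of Fstl1 and Acvr2b lie below 0 in Vehicle minus HFD; none passed the adjusted threshold.

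The second comparison set PCN against its vehicle in mice on the high-fat diet, and 9 of the 10 genes had lower fitted levels with PCN, none past the threshold. Of all 12833 genes tested, 6115 were lower. The direction of Mstn turned without PCN 5 (log2 fold change 0.045) or Vehicle 23 (0.0083), and that of Acvr2b without PCN 11 (0.038) or Vehicle 55 (0.0096). Gdf11 was at 35.7, 22.0 and 11.5 CPM in Vehicle 15, 23 and 55 and at 4.21, 14.4 and 9.42 CPM in PCN 5, 11 and 27. The groups overlapped, because Vehicle 55 lay below PCN 11. The log2 fold change was -1.30 ± 0.53 (95% interval -2.57 to -0.02), with an adjusted p = 0.998 by edgeR (rank 328 of 12833). With 1 library left out at a time it ranged from -1.75 (without PCN 11) to -0.85 (without Vehicle 15), and was -0.95 without PCN 5. In the authors' deposited table it was -0.67 ± 0.24 (adjusted p = 0.999), against -1.30 in a DESeq2 fit of the counts, and the scales may differ here too. Mstn was at 104, 106 and 44.7 CPM in Vehicle 15, 23 and 55 and at 48.8, 96.6 and 79.0 CPM in PCN 5, 11 and 27. Vehicle 55 and PCN 5 were low together, the groups overlapped, and the interval of the log2 fold change, -1.03 to 0.67, was wide.

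Among the receptors, Acvr1b was at 89.2, 88.8 and 49.6 CPM in Vehicle 15, 23 and 55 and at 39.2, 66.7 and 57.6 CPM in PCN 5, 11 and 27. Again only Vehicle 55 lay within the PCN range (log2 fold change -0.48 ± 0.27). Acvr2a averaged 47.8 ± 13.1 and 41.6 ± 6.31 CPM, and Acvr2b 6.95 ± 1.55 and 6.16 ± 2.05 CPM, in Vehicle and PCN. The follistatin group had log2 fold changes of -0.51 ± 0.34 (Fst), -0.31 ± 0.31 (Fstl1) and -0.24 ± 0.44 (Fstl3). Smad7 was at -0.42 ± 0.25, and Smad3, with 43.1 to 140 CPM in PCN alone, at 0.02 ± 0.45. Of the 10 genes, 0 passed edgeR's threshold (0% of all genes), 1 had an unadjusted p under 0.05 (2.82% of all genes), and 0 were fully higher or fully lower (4.33% and 4.06% of all genes). DESeq2 and the authors' deposited table called 0 genes each. The median log2 fold change of the 10 was -0.27, beside 0.01 over all genes.

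The third comparison, Vehicle against HFD, covers mice on the same diet with and without injections of corn oil and DMSO. It joins the 2 count tables. The HFD libraries were deposited with Chow and the Vehicle libraries with PCN, so injection and count table cannot be told apart here. The Vehicle libraries serve in this comparison and in the previous one, as the HFD libraries do in this and the first. Fstl1 was at 27.0, 26.8 and 14.7 CPM in Vehicle 15, 23 and 55, below 31.2, 31.7 and 55.0 CPM in HFD 4, 30 and 38. The groups did not overlap, and the log2 fold change was -0.79 ± 0.31 (edgeR adjusted p = 0.244, rank 1923 of 12746). It was -0.46 without HFD 38 (adjusted p = 0.403). Acvr2b was at 6.45, 5.70 and 8.69 CPM in Vehicle and at 10.8, 10.8 and 8.76 CPM in HFD in the same library order. Its groups touched without crossing, Vehicle 55 lying just under HFD 38, and the log2 fold change was -0.54 ± 0.19 (edgeR adjusted p = 0.182, rank 1298).

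The calls in this comparison changed without Vehicle 55. Without it, Mstn was higher in Vehicle than in HFD (log2 fold change 0.77, edgeR adjusted p = 0.0189) and Acvr2b lower (-0.74, adjusted p = 0.0268). The number of genes called rose from 193 of 12746 to 1180 of 13033. Leaving out any other single library called 0 members, and the Mstn value ranged from 0.28 to 0.77 over these fits and that without Vehicle 55. With Vehicle 55 kept, Mstn stood at 0.46 ± 0.34 and Gdf11 at -0.42 ± 0.40, with overlapping groups. With all libraries 0 of the 10 genes passed edgeR's threshold, where 1.51% of all genes did, and 2 (Fstl1 and Acvr2b) had an unadjusted p under 0.05, where 17.8% of all genes did. The 2 were also the genes whose Vehicle libraries all lay below HFD (11.1% of all genes), and 0 lay fully above (12.2%). DESeq2 called 0 of the 8 members to which it gave an adjusted p (none was given for Fst and Fstl3), with Fstl1 nearest to the threshold at an adjusted p = 0.0537. The median log2 fold change of the 10 was -0.09, and that of all genes -0.0014.

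Over the 4 groups at once, Fstl1 and Gdf11 had the lowest p-values of the 10. The edgeR test with 3 degrees of freedom gave F = 6.91 for Fstl1 (adjusted p = 0.140, rank 518 of 13375) and F = 5.22 for Gdf11 (adjusted p = 0.216, rank 1140). The Fstl1 means were 38.9 ± 0.120 CPM (Chow), 39.3 ± 13.6 (HFD), 22.9 ± 7.04 (Vehicle) and 18.4 ± 6.71 (PCN), and its adjusted p was 0.0521 without PCN 11. Acvr1b and Acvr2a followed (adjusted p = 0.318 for both). In all, 4 of the 10 had an unadjusted p under 0.05, beside 15.5% of all genes, and 0 passed the adjusted threshold, beside 0.179%. DESeq2's likelihood ratio test called 2 of the 9 members with an adjusted p (Fstl3 had none), Fstl1 (adjusted p = 0.00837) and Gdf11 (adjusted p = 0.00879), among 771 of 11749 genes.

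Gdf11 was set beside slow-fibre markers and Fstl1 beside fibroblast and matrix markers, since these lists also differed between libraries. In 3 of the 4 groups the library with the lowest summed slow-fibre level had the highest Gdf11, and in 3 of 4 the library with the highest slow-fibre level had the lowest Gdf11. The same 2 counts were 3 and 2 of 4 for both Acvr1b and Acvr2a, and 0 and 2 of 4 for Mstn. The share over all genes was not counted. Vehicle 15, at 27.1 CPM of slow-fibre markers, had 35.7 CPM of Gdf11, while PCN 5, at 438 CPM, had 4.21 CPM. Across groups this order did not hold: PCN 27, at 31.7 CPM of slow-fibre markers, had 9.42 CPM of Gdf11, and Chow 17, at 509 CPM, had 10.9 CPM. Of the 4 markers summed (Ankrd2, the most abundant in each library, Tpm3, Casq2 and Myh7b), 1, Myh7b, was at 0 counts in PCN 11, and all 4 had counts in the other libraries. With the mean slow-fibre level as a covariate, the log2 fold change of Gdf11 between HFD and Chow was 0.68 (edgeR adjusted p = 0.917), and with Chow 17 and Chow 19 left out together it was 0.63 (adjusted p = 0.544). The latter fit assumes that the lone library Chow 8 varies like the others. Acvr1b went from 0.72 to 0.28 and Acvr2a from 0.58 to 0.31 with the covariate, and to 0.38 and 0.49 without the 2 libraries. Summed slow-fibre levels were 166 to 523 CPM in Chow and 48.9 to 202 CPM in HFD, so the covariate and the diet cannot be fully told apart. The part of fibre type in these values was not tested, in this or the other comparisons.

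Between PCN and Vehicle the log2 fold change of Gdf11 was -1.30 with the slow-fibre covariate (edgeR adjusted p = 0.868), as it was without the covariate. Without Vehicle 55 and PCN 5 it was -1.28 (adjusted p = 0.989). With the covariate, Gdf11 passed the threshold between Vehicle and HFD (log2 fold change -0.68, adjusted p = 0.0458) and over the 4 groups (F = 30.4, adjusted p = 0.00480). The covariate fits called 487 genes rather than 193 between Vehicle and HFD, and 100 rather than 24 over the 4 groups. Without the covariate, Gdf11 stood at -0.42 between Vehicle and HFD, at -0.10 without Vehicle 55 and at -0.87 without Vehicle 15. Fstl1 was set beside fibroblast and matrix markers, of which 12 of 12 were found and 0 were at 0 counts. Their summed level per library spanned 729 to 1067 CPM (Chow), 762 to 1394 (HFD), 541 to 677 (Vehicle) and 439 to 656 (PCN). The library with the highest sum also had the highest Fstl1 in 3 of the 4 groups. The part of the matrix markers in the Fstl1 values was not tested.

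**Figure D3:**
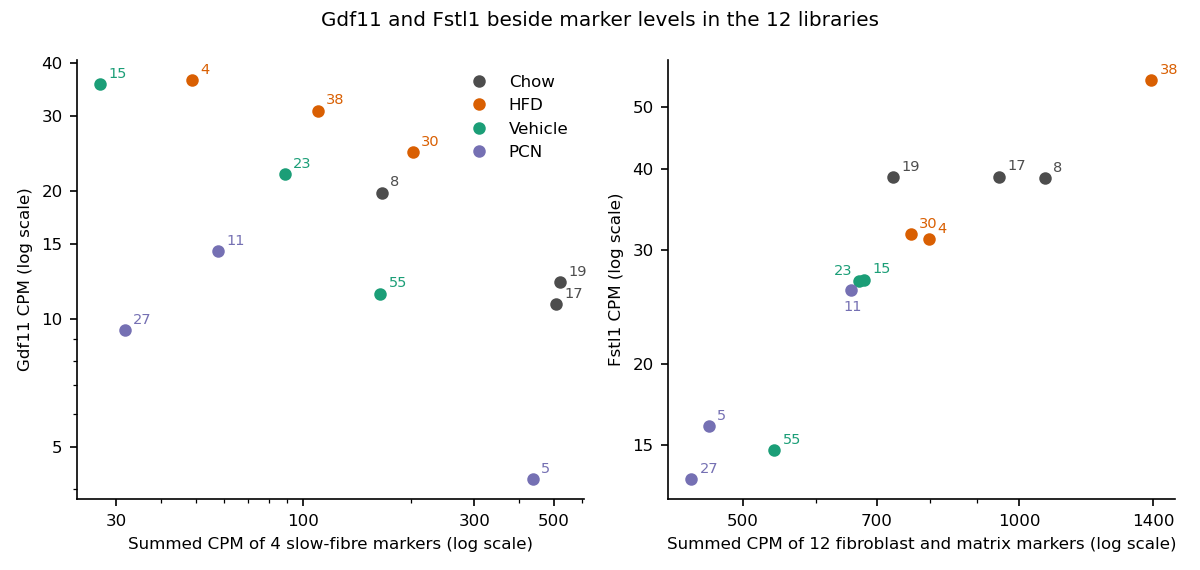
Left, Gdf11 CPM against the summed CPM of 4 slow-fibre markers; right, Fstl1 CPM against the summed CPM of 12 fibroblast and matrix markers, both on log axes, 1 point per library with its number, coloured by group. PCN 5, with 438 CPM of slow-fibre markers, is lowest in Gdf11, and HFD 38, with 1394 CPM of matrix markers, is highest in Fstl1.

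Within a library, the ratio of Mstn to Gdf11 differed between groups, while Mstn alone overlapped even between its highest and lowest group. Per kb, Mstn was 4.75 to 8.05 times as high as Gdf11 for Chow libraries, 2.25 to 4.26 for HFD, 4.40 to 7.22 for Vehicle and 10.1 to 17.4 for PCN. The HFD libraries had the lowest ratios and the PCN libraries the highest, and neither overlapped another group. Acvr1b was 1.36 to 2.35 times as high as Acvr2a over the 12 libraries, with 2.05 to 2.25 for HFD and 1.36 to 1.91 for PCN, which did not overlap. The Acvr2a to Acvr2b ratio given above, 2.10 to 8.10, overlapped between all groups. Smad3 was 6.11 to 20.6 times as high as its inhibitor Smad7, and Fstl1 5.99 to 22.1 times as high as Fst, with all groups overlapping in both ratios. These ratios were singled out after the values were seen and are given without a test. The share of other gene pairs whose ratios stand apart between groups was not counted.

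Of 78 other pathway genes listed, 74 were in both tables, and 61 were tested between HFD and Chow. Of these 61, 0 passed edgeR's threshold and 7 had an unadjusted p under 0.05 (11.5%, beside the 7.70% of all genes given above), 3 higher and 4 lower. The lowest p belonged to Gas6, with 48.5 ± 2.42 CPM for Chow against 33.1 ± 2.93 CPM for HFD (log2 fold change -0.53 ± 0.13, edgeR adjusted p = 0.433). Gas6 was listed with the antagonists but is known as a ligand of the TAM receptor kinases, and its level in Vehicle, 49.8 ± 5.31 CPM, was near that of Chow. Pcsk6, a convertase that cleaves TGF-β family precursors, averaged 20.3 ± 3.65 and 12.9 ± 3.46 CPM (-0.62 ± 0.21). Id3, a target of BMP signalling, averaged 2.17 ± 0.170 and 3.43 ± 0.497 CPM (0.68 ± 0.24, adjusted p = 0.635 for both). DESeq2 called 0 of 62 with an adjusted p. Between PCN and Vehicle, 0 of 59 passed and 2 had an unadjusted p under 0.05 (3.39%, near the 2.82% of all genes), both lower with PCN. Acvr1c, the type I receptor ALK7, averaged 2.21 ± 0.748 CPM in Vehicle and 0.933 ± 0.476 in PCN (log2 fold change -1.23 ± 0.46). The SMAD corepressor Ski averaged 29.2 ± 1.90 and 23.0 ± 2.32 CPM (-0.34 ± 0.15), and the ligand Tgfb1 2.49 ± 0.282 and 1.62 ± 0.209 CPM (-0.62 ± 0.28, edgeR adjusted p = 0.998 for all 3).

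Between Vehicle and HFD, 4 of 60 other pathway genes passed edgeR's threshold, all lower in Vehicle, beside 1.51% of all genes. An unadjusted p under 0.05 was found for 15 (25%, beside 17.8% of all genes). The lists were chosen with earlier results of these data known, so such shares are a description in all comparisons. Injection and count table cannot be told apart in the values that follow. Acvr1, a type I receptor best known for BMP signals, fell from 14.1, 14.8 and 14.3 CPM in HFD 4, 30 and 38 to 8.65, 7.12 and 8.09 CPM in Vehicle 15, 23 and 55 (log2 fold change -0.86 ± 0.14, adjusted p = 0.0322). These 2 groups did not overlap. Chow 8, 17 and 19 held 10.21, 10.55 and 19.93 CPM, a range that includes the HFD values. Col1a1, a chain of type I collagen and also 1 of the matrix markers above, fell from 67.0 ± 22.2 to 26.9 ± 3.02 CPM (-1.32 ± 0.22, adjusted p = 0.0345). Nedd4l, a ubiquitin ligase that acts on activated SMADs, fell from 49.0 ± 1.10 to 29.4 ± 4.22 CPM (-0.74 ± 0.13, adjusted p = 0.0348). Cdkn1a, the cell cycle inhibitor that SMADs can induce, fell from 14.5 ± 2.53 to 6.92 ± 1.33 CPM (-1.07 ± 0.19, adjusted p = 0.0356). All 4 calls ended in a fit of the 12 libraries (adjusted p = 0.213 to 0.267), and also without HFD 4, HFD 30, Vehicle 15 or Vehicle 23; without HFD 38 only Col1a1 passed. Over the 4 groups 0 of 62 passed by edgeR, beside 0.179% of all genes, and 16 had an unadjusted p under 0.05 (25.8%, beside 15.5%), led by Cdkn1a (adjusted p = 0.0839), Acvr1 (0.0986) and Col1a1 (0.115). DESeq2's likelihood ratio test called 8 of the 56 other pathway genes with an adjusted p, among its 771 genes.

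**Figure D4:**
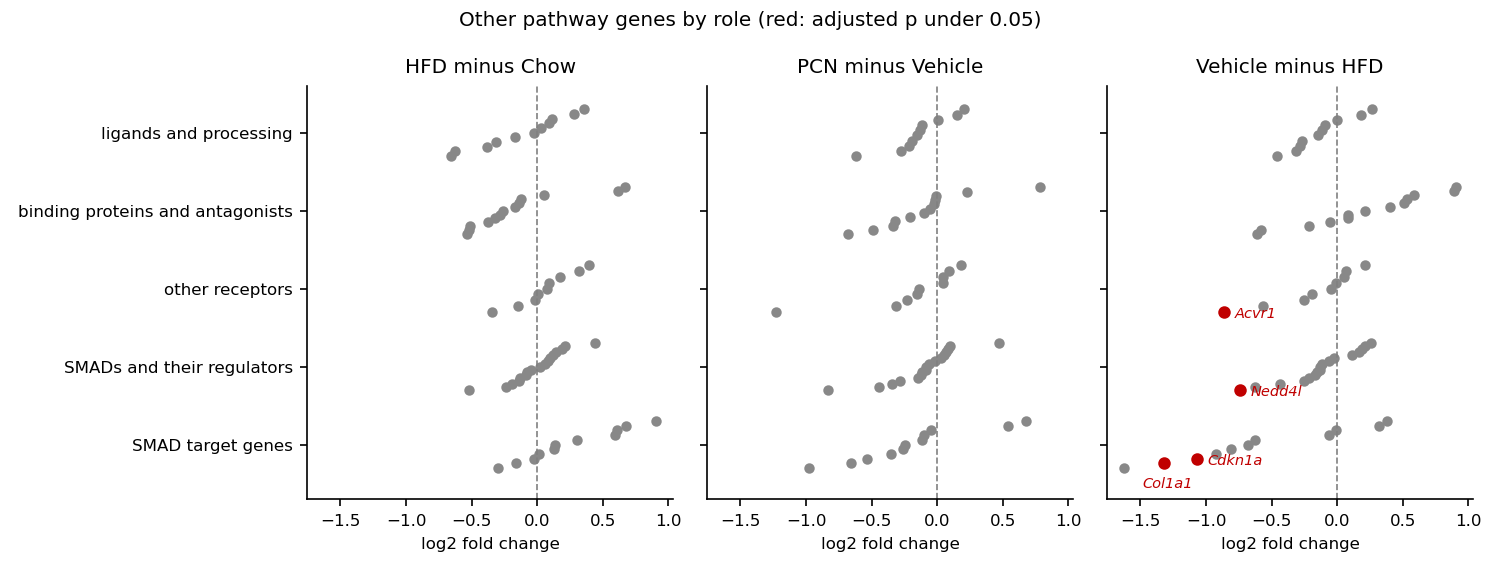
Fitted log2 fold change (horizontal axis) of the other pathway genes, by role (rows of points), in the 3 pairwise comparisons. Red points passed edgeR's adjusted threshold: Acvr1, Nedd4l, Cdkn1a and Col1a1, all lower in Vehicle than in HFD.

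Over the 12 libraries, the genes whose log2 CPM followed each member most closely were picked by Pearson's r among 10875 genes, as a description in which all points share library composition and groups. For Gdf11 they were Sema3c (r = 0.937), a secreted semaphorin, Fam160a1 (0.931) and Slc44a2 (0.917). For Fstl1 they were Loxl2 (0.963), a collagen cross-linking enzyme, Sh3pxd2b (0.958) and Ror1 (0.957). For Acvr1b they were Ppp3ca (0.943), the catalytic subunit of calcineurin, Slc26a6 (0.938) and Pappa (0.928). For Mstn they were Tpd52 (0.952), Mtap (0.946) and Egln2 (0.942). Among the members themselves, Acvr1b followed Acvr2a (r = 0.877) and Gdf11 (0.845), while Mstn and Gdf11, the related ligands, had r = 0.372.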

How the data were processed

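RNA of mouse skeletal muscle was measured in 12 libraries. The authors deposited raw counts per gene, 6 libraries to a table (HFD with Chow, PCN with Vehicle), and set their own comparison beside them. Tools named in the submitters' processing notes are HISAT2, HTSeq and DESeq2, and the builds are GRCm38 and mm10. Their versions, the annotation release and the strand setting were not given in the sources used here. If strand was ignored, reads of opposite-strand genes cannot be separated. The deposited log2 fold changes and p-values of the authors' own comparison were only copied. The authors' other statistics are not used here. No row without a gene entered library sizes.

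Each pairwise comparison was fitted on its 6 libraries with edgeR 4.0.16 (R 4.3.3): TMM normalisation, default filter (minimum count 10), robust quasi-likelihood F test, Benjamini-Hochberg adjustment over all genes tested, threshold 0.05. Vehicle against HFD and the 4-group test used the 21976 shared genes. Standard errors are the log2 fold change over the square root of F. Levels are TMM-normalised CPM from all 12 libraries, divided by exonic kilobases of GENCODE M21 where genes are compared. Replicate numbers are unique, so nothing was paired. Replicates differed by more than sampling noise (chi-square per gene 21.7 to 121), and each library counted as 1 sample. Scripts were tested on simulated data.

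The members and lists were chosen with earlier results of these data known. Named are all 10 members, the 3 other pathway genes with the lowest p in each test, and the 3 genes most correlated with Mstn and with the 3 further members lowest in p over the 4 groups. Cdkn1a between Vehicle and HFD, called but not among the 3 lowest in p, was named after its values were seen, as were ratios and single libraries. Alternatives were DESeq2 1.42.0, its size factors, other filters, all 12 libraries in 1 fit, a slow-fibre covariate, and libraries left out; leaving out Vehicle 55 with PCN 5, alone or with Chow 17 and Chow 19, was chosen after seeing the data.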

Additional observations from a re-analysis of the deposited data

How the results depend on the processing

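No paired analysis was possible because the libraries carry unique numbers. For the 10 genes, direction and side of the threshold were the same in 116 of 129 refitted values between HFD and Chow, 121 of 129 between PCN and Vehicle, 103 of 117 between Vehicle and HFD, and 185 of 188 over the 4 groups, leaving out fits with no adjusted p.

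Calls by edgeR were 0 members, 0 other pathway genes and 0 genes in all for HFD against Chow; DESeq2 gave 1 member and 44 genes, and no expression filter gave 3, 3 and 237. PCN against Vehicle had 0 genes, and 21 with no filter. Vehicle against HFD had 0, 4 and 193; DESeq2 gave 9 pathway genes and 618 genes, no filter 571 genes, the slow-fibre covariate 1, 7 and 487, and the fit of 12 libraries 0 pathway genes and 0 genes. The 4-group test had 0, 0 and 24; DESeq2 gave 2, 8 and 771, no filter 1 pathway gene and 185 genes, a mean of at least 1 CPM 13 genes, the covariate 1 member and 100 genes, leaving out Chow 17 and Chow 19 2 pathway genes and 88 genes, and leaving out Vehicle 55 and PCN 5 as well 5 and 308. The cause was not tested.

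Leaving out 1 library at a time, genes called ranged from 0 to 219 (without Chow 19) and pathway genes from 0 to 2 for HFD against Chow, from 0 to 1180 (without Vehicle 55), 0 to 8 and 0 to 2 members for Vehicle against HFD, and from 3 to 216 (without Chow 19) and 0 to 2 over the 4 groups.

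Directions turned as follows, for genes that passed the threshold in no such fit. Between HFD and Chow, Mstn was -0.067 with the covariate and -0.032 without Chow 17 and Chow 19, where Fstl3 was -0.028; with single libraries left out, Mstn ranged from -0.068 to 0.20, Fst from -0.78 to 0.040, Fstl1 from -0.30 to 0.18 and Fstl3 from -0.18 to 0.38 (log2). Between PCN and Vehicle, Acvr2b was 0.037 and Smad3 -0.18 without Vehicle 55 and PCN 5; single libraries gave Mstn -0.50 to 0.045, Acvr2b -0.44 to 0.038 and Smad3 -0.48 to 0.35. Between Vehicle and HFD, Acvr2a was -0.059 with the covariate; single libraries gave Fst -0.48 to 0.36, Fstl3 -0.32 to 0.23, Acvr2a -0.14 to 0.24, Acvr1b -0.19 to 0.17 and Smad3 -0.23 to 0.22. Fst and Fstl3, with 8 to 63 counts per library, are limited by depth.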
